A study of Sus scrofa with 16 samples.

Results

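The expression of 10 genes that handle glutathione, peroxides, sulfide and metals was examined in the hippocampus of preterm pigs with and without necrotizing enterocolitis (NEC), an acute inflammatory disease of the immature gut. The genes were *MT3*, *GPX1*, *GPX3*, *GPX4*, *GSTM3*, *TST*, *GCLC*, *GCLM*, *NQO1* and *SOD2*, and a gene was taken when its Ensembl gene ID in the deposited table matched its symbol. This held for 6 of the 10, namely *MT3*, *GPX4*, *GSTM3*, *TST*, *GCLC* and *NQO1*, and all 6 were among the 13590 entries tested, those whose mean reached 0.5 FPKM. *GPX1*, *GPX3*, *GCLM* and *SOD2* were not found by symbol and were not analysed here. FPKM is the number of fragments per length of transcript and number of mapped fragments, so levels of different genes can be compared per length.

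RNA came from the left hippocampi of 16 pigs, delivered preterm by caesarean section, fed human donor milk of different types beside decreasing parenteral nutrition, and reared for just over a week, during which NEC arose spontaneously. The 5 No NEC pigs (2 female, 3 male) were delivered and reared in the same way but had no visible gut lesions, the 5 Co-NEC pigs (2 female, 3 male) had severe lesions in the colon only, and the 6 Si-NEC pigs (3 female, 3 male) had them in the small intestine, with or without the colon. The labels do not give the litter of each pig, and the groups were formed by the lesions found, not by assignment. Since whole hippocampus was used, fewer cells of a type and less RNA per cell cannot be told apart in any value below.

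Glutathione is the main small thiol of cells. Its rate-limiting synthesis is carried out by glutamate-cysteine ligase, of which *GCLC* encodes the catalytic subunit. Glutathione peroxidases such as GPX4 use it to reduce peroxides, and glutathione transferases such as GSTM3 attach it to reactive compounds. In brain, much of this system is found in astrocytes. Metallothioneins are small cysteine-rich proteins that bind zinc and copper, and MT3 is the member typical of brain. TST (rhodanese) is a mitochondrial enzyme that transfers sulfur to cyanide and takes part in sulfide disposal, and NQO1 is a quinone reductase that, like GCLC, is a classical target of the stress-responsive transcription factor NRF2.

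The 6 genes spanned a wide range of levels. *MT3* (ENSSSCG00000024305) had a mean of 4958 ± 1401 FPKM (SD, n = 16), above 99.9% of the tested entries. *GPX4* (ENSSSCG00000024052) followed with 134 ± 33.6 FPKM, *TST* (ENSSSCG00000000133) with 101 ± 38.8 and *GSTM3* (ENSSSCG00000006821) with 36.6 ± 24.2. The lowest levels were those of *GCLC* (ENSSSCG00000001488), 11.3 ± 1.82 FPKM, and *NQO1* (ENSSSCG00000002754), 8.49 ± 1.96 FPKM. *MT3* was above *GPX4* in every pig, with ranges that did not overlap, and *TST* was above *GSTM3* within each of the 16 pigs. The order of the other neighbours was less fixed: *GPX4* exceeded *TST* in 13 of 16 pigs, *GSTM3* exceeded *GCLC* in 14 of 16, and *GCLC* exceeded *NQO1* in 14 of 16.

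The *MT3* gene ID had 3 distinct entries, and the entry used here is the highest. It held 99.63% to 99.98% of the FPKM of that ID in each pig, while the others lay at 0.80 to 13.9 FPKM and 0.31 to 1.39 FPKM. In the RefSeq annotation of the assembly Sscrofa11.1, *MT3* lies between *MT4* and *MT-2B*. Metallothionein genes are close relatives, as are the *GSTM* genes, so reads shared with relatives make the levels of *MT3* and *GSTM3* uncertain.

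Pigs also differed in how far their FPKM values summed. No NEC pig 230-15 had a sum of 864931 FPKM and Si-NEC pig 223-15 one of 823320, against 544629 to 645197 in the other 14 pigs. Both had the lowest median correlation with the other pigs across genes (0.902 and 0.933). Pig 230-15 ranked first of 16 for *MT3*, *GPX4* and *GCLC* and second for *GSTM3*, *TST* and *NQO1*, and pig 223-15 ranked first for *GSTM3* and *TST*. The group differences of the 6 genes were therefore also computed without these pigs, and the part of the sums in the results was not tested. As the plot of FPKM by group shows, both pigs stand at or near the top of most genes.

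**Figure D1:**
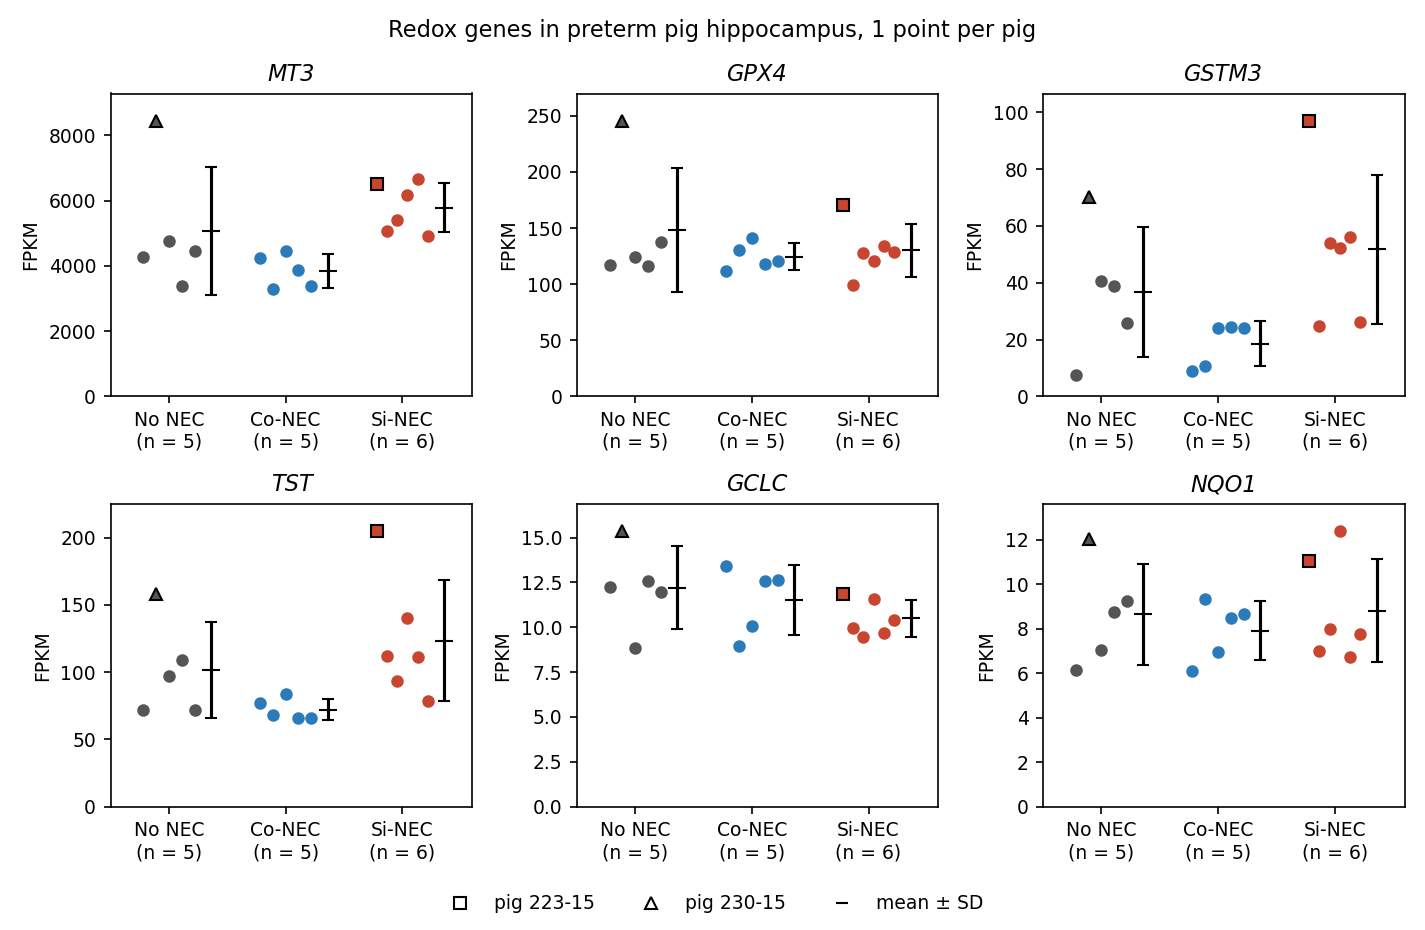
FPKM (vertical axis, linear from 0) of the 6 redox genes in each pig, by group, with the mean ± SD of each group at its right. The 6 Si-NEC pigs lie above all 5 Co-NEC pigs for MT3 and GSTM3, and pig 230-15 (triangle) is far above the other No NEC pigs for MT3 and GPX4.

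*MT3*, *GSTM3* and *TST* had more FPKM in the Si-NEC group than in the Co-NEC group. The 10 genes were chosen with results of these data known, and these 3, with *GPX3*, were selected on their FPKM in Si-NEC against Co-NEC pigs, since the study's own list of that contrast holds them. *GSTM3* is also in its list for Co-NEC against No NEC pigs. Their differences in these comparisons are thus given as descriptions, with no test.

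*MT3* was at 4916, 5061, 5411, 6177, 6497 and 6657 FPKM in the Si-NEC pigs. In the Co-NEC pigs it was at 3288, 3380, 3889, 4257 and 4467 FPKM. In the No NEC pigs it was at 3390, 4271, 4470, 4759 and 8441 FPKM. No Si-NEC pig was as low as the highest Co-NEC pig. The No NEC pigs overlapped with both groups, since 4 of them lay under the lowest Si-NEC pig and pig 230-15 lay above all others. The mean was 5786 ± 754 FPKM in Si-NEC (SD, n = 6), 3856 ± 521 in Co-NEC (n = 5) and 5066 ± 1954 in No NEC pigs (n = 5). On log2(FPKM + 0.5), the scale of all log2 differences below, Si-NEC pigs exceeded Co-NEC pigs by 0.59 (95% interval 0.26 to 0.91), a ratio of means of 1.501.

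*GSTM3*, a mu-class glutathione transferase, varied most. It was at 24.8, 26.3, 52.3, 54.2, 56.2 and 96.9 FPKM in the Si-NEC pigs. In the Co-NEC pigs it was at 8.90, 10.9, 23.9, 24.2 and 24.5 FPKM. In the No NEC pigs it was at 7.55, 25.9, 38.9, 40.6 and 70.1 FPKM. The Si-NEC and Co-NEC pigs did not overlap, but the gap between them was narrow, from 24.5 to 24.8 FPKM, and the No NEC pigs covered most of the range of both. Group means were 51.8 ± 26.2 FPKM in Si-NEC, 18.5 ± 7.89 in Co-NEC and 36.6 ± 22.9 in No NEC pigs. The Si-NEC pigs exceeded the Co-NEC pigs by 1.43 on the log2 scale (95% interval 0.60 to 2.26), a ratio of means of 2.80. Pigs of one group also differed severalfold from each other. The highest pig was 12.8 times the lowest, and the SD within groups of 0.88 (log2) was larger than that of 96.5% of the tested entries.

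*TST* was at 78.8, 93.8, 111, 112, 140 and 205 FPKM in the Si-NEC pigs. The Co-NEC pigs were at 65.7, 66.3, 68.2, 77.2 and 83.5 FPKM. The No NEC pigs were at 71.9, 72.0, 96.9, 109 and 158 FPKM. In 5 of the 6 Si-NEC pigs *TST* exceeded the highest Co-NEC pig, and the Co-NEC pigs formed the tightest group at the low end. Group means were 123 ± 44.9 FPKM in Si-NEC, 72.2 ± 7.87 in Co-NEC and 102 ± 35.5 in No NEC pigs. The Si-NEC pigs exceeded the Co-NEC pigs by 0.71 on the log2 scale (95% interval 0.27 to 1.15), a ratio of means of 1.71.

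The same description without pig 223-15 gave 0.55 for *MT3*, 1.22 for *GSTM3* and 0.55 for *TST* (log2), from the pigs on which the genes were selected. The pig numbers end in 14 or 15, which the labels do not explain, and the comparison was repeated within each ending. Between Si-NEC and Co-NEC pigs, *MT3* differed by 0.66 among pigs ending in 14 and by 0.54 among those ending in 15. The corresponding differences were 0.66 and 1.90 for *GSTM3* and 0.50 and 0.79 for *TST*. For *GPX4* they were 0.14 and 0.00, for *GCLC* -0.31 and 0.00, and for *NQO1* -0.23 and 0.33. These rest on 2 against 2 pigs ending in 14 and 4 against 3 ending in 15, and nothing is read from them.

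*GPX4*, *GCLC* and *NQO1* were near each other in the 3 groups. *GPX4*, which reduces lipid peroxides in membranes, was at 99.1, 120, 128, 128, 134 and 171 FPKM in the Si-NEC pigs and at 112, 118, 121, 131 and 142 FPKM in the Co-NEC pigs. In the No NEC pigs it was at 117, 117, 124, 138 and 245 FPKM. The groups overlapped throughout, and pig 230-15 alone stood apart. Between Si-NEC and Co-NEC pigs the fold was 1.04 (95% interval 0.859 to 1.25), with a permutation p of 0.723 (exact, two-sided). The difference was -0.14 from No NEC to Si-NEC pigs (95% interval -0.58 to 0.30, exact permutation p = 0.606) and -0.19 from No NEC to Co-NEC pigs (95% interval -0.62 to 0.24, exact permutation p = 0.524).

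*GCLC* was the least variable of the 6 genes, with a highest pig 1.73 times the lowest. It was at 9.46, 9.68, 9.94, 10.4, 11.6 and 11.9 FPKM in the Si-NEC pigs and at 8.93, 10.05, 12.6, 12.6 and 13.4 FPKM in the Co-NEC pigs. In the No NEC pigs it was at 8.86, 11.97, 12.2, 12.6 and 15.4 FPKM. The Si-NEC pigs filled the lower part of the range, within the limits of both other groups. Their difference was -0.19 from No NEC pigs (95% interval -0.48 to 0.10, exact permutation p = 0.177) and -0.12 from Co-NEC pigs (95% interval -0.37 to 0.14, exact permutation p = 0.307). Co-NEC pigs differed from No NEC pigs by -0.08 (95% interval -0.43 to 0.28, exact permutation p = 0.690).

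*NQO1* was at 6.74, 7.01, 7.76, 7.99, 11.05 and 12.4 FPKM in the Si-NEC pigs and at 6.11, 6.97, 8.50, 8.67 and 9.35 FPKM in the Co-NEC pigs. In the No NEC pigs it was at 6.16, 7.06, 8.75, 9.27 and 12.1 FPKM. The high pigs, 246-15, 230-15 and 223-15, came from both the Si-NEC and the No NEC group. The fold of Si-NEC over No NEC pigs was 1.02 (95% interval 0.753 to 1.38, exact permutation p = 0.913) and that over Co-NEC pigs 1.09 (95% interval 0.844 to 1.41, exact permutation p = 0.498). Co-NEC against No NEC pigs gave a fold of 0.932 (95% interval 0.706 to 1.23, exact permutation p = 0.548). These intervals leave room for differences of about the size of the *MT3* difference given next.

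The comparisons with No NEC pigs share those pigs with each other and share the Si-NEC or Co-NEC pigs with the contrast above, so they are not separate evidence on *MT3*, *GSTM3* and *TST*. Si-NEC pigs exceeded No NEC pigs by 0.25 for *MT3* (95% interval -0.27 to 0.78, exact permutation p = 0.281). For *GSTM3* the difference was 0.65 (95% interval -0.47 to 1.76, exact permutation p = 0.316) and for *TST* 0.27 (95% interval -0.30 to 0.85, exact permutation p = 0.372). None of the 3 genes differed beyond the spread between pigs. With 6 against 5 pigs the smallest p such a test allows is 0.00216.

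The values moved with single pigs. Without pig 230-15, all 6 Si-NEC pigs lay above the other 4 No NEC pigs for *MT3*. The difference was then 0.46 (95% interval 0.08 to 0.83), with an adjusted p of 0.994 by limma. The share of all entries without overlap among these pigs is not given here. *MT3* was also selected on the same Si-NEC pigs, so nothing is read from the separation or the interval. Without pig 230-15 the difference came to 0.96 for *GSTM3* and 0.45 for *TST*, with intervals that still covered 0. Other pigs moved the values the other way. Without No NEC pig 228-15, the lowest for *GSTM3*, that difference was 0.17 (95% interval -0.69 to 1.03). *MT3* came to 0.13 without No NEC pig 540-14, and *TST* to 0.11 without Si-NEC pig 223-15.

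Co-NEC pigs had lower log2 means than No NEC pigs in all 6 genes, although rescaling to equal FPKM sums turned *GCLC* to 0.05 and *NQO1* to 0.02. The difference was -0.33 for *MT3* (95% interval -0.88 to 0.21, exact permutation p = 0.151) and -0.43 for *TST* (95% interval -0.88 to 0.02, exact permutation p = 0.0794). For *GSTM3* it was -0.78 (95% interval -1.95 to 0.39), with no test. For 5 against 5 pigs the smallest p possible is 0.00794. Without pig 230-15 these values came to -0.13 for *MT3*, -0.26 for *TST* and -0.47 for *GSTM3*, and those of *GPX4*, *GCLC* and *NQO1* lay between 0.00 and 0.02. Without pig 228-15 the difference was instead -1.26 for *GSTM3* (95% interval -2.11 to -0.41) and -0.54 for *TST* (95% interval -0.99 to -0.09). The plot of group differences sets the values with and without the 2 pigs beside each other.

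**Figure D2:**
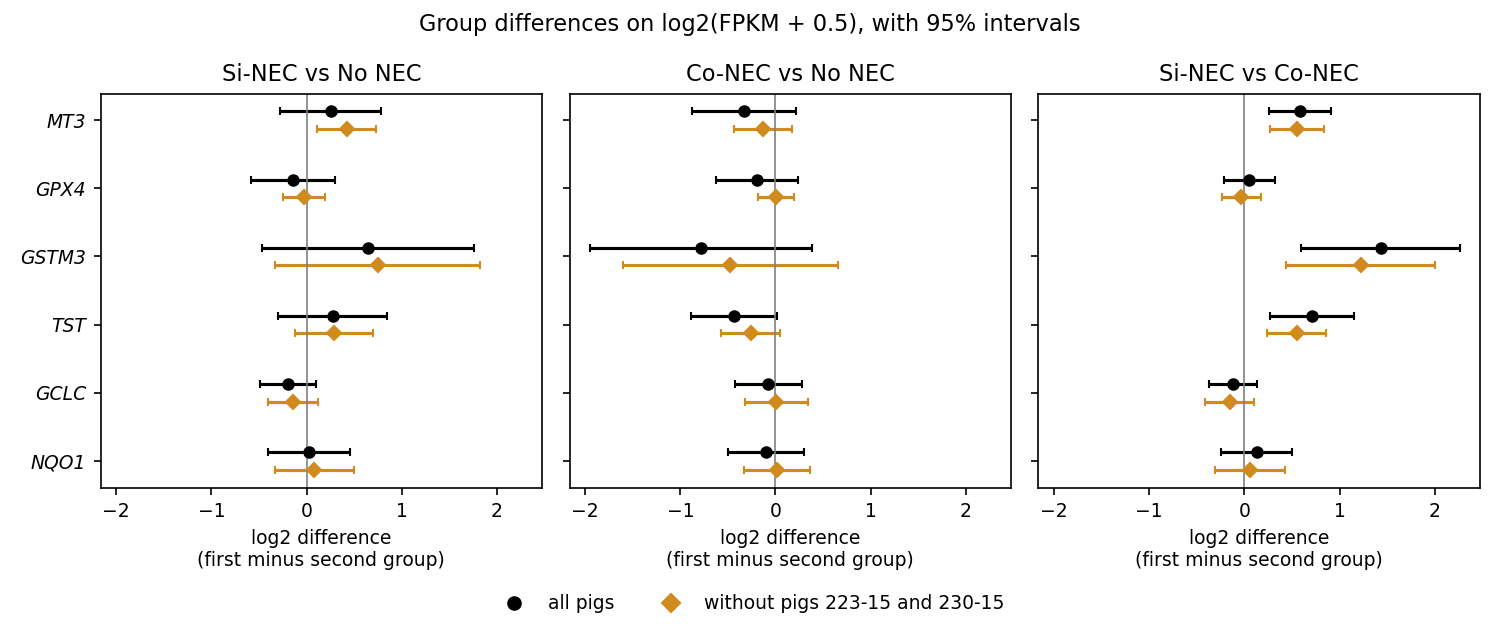
Differences between groups on the log2(FPKM + 0.5) scale (horizontal axis, first minus second group) with 95% intervals from limma, for all pigs (circles) and without pigs 223-15 and 230-15 (diamonds). In Si-NEC against Co-NEC pigs MT3, GSTM3 and TST lie above 0 in both settings. The study had listed these genes from this contrast in the same pigs, so their intervals are not read as tests. The intervals of GPX4, GCLC and NQO1 include 0.

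Across the transcriptome, limma called few entries at an adjusted p under 0.2, the study's threshold. Of all entries tested, 0.00736% were called for Si-NEC against No NEC, 0.00736% in Co-NEC against No NEC pigs and 0.0147% in Si-NEC against Co-NEC pigs, and 0 of the 6 redox genes were called in any of them. At an unadjusted p under 0.05, 0 of 6 were reached in Si-NEC against No NEC pigs, where 2.61% of all entries were, and 0 of 6 in Co-NEC against No NEC pigs, where 3.44% were. In Si-NEC against Co-NEC pigs 3 of 6 were reached (*MT3*, *GSTM3* and *TST*) beside 5.64% of all entries. Groups that did not overlap were seen for 0 of 6 genes when Si-NEC and No NEC pigs were compared (0.155% of all entries) and 0 of 6 in Co-NEC against No NEC pigs (0.464%). In Si-NEC against Co-NEC pigs they were seen for 2 of 6, *MT3* and *GSTM3*, beside 0.545% of all entries. As these genes were taken from that contrast, nothing is read from the last counts.

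The median difference of the 6 genes was 0.14 in Si-NEC against No NEC pigs, against 0.02 over all entries, with 4 of 6 higher. It was -0.26 in Co-NEC against No NEC pigs, against 0.01 over all entries, with 0 of 6 higher. *GSTM3* was selected on this contrast, and *MT3*, *GSTM3* and *TST* on one that shares the Co-NEC pigs, so nothing is read from it. Without pigs 223-15 and 230-15 the median in Co-NEC against No NEC pigs was -0.06, with 3 of 6 higher. In Si-NEC against Co-NEC pigs it was 0.36, with 5 of 6 higher, but 3 of the 6 were selected on this contrast and nothing is read from it. Rescaled to equal FPKM sums, 3 of 6 were higher in the last comparison and 2 of 6 in Co-NEC against No NEC pigs, while *MT3*, *GSTM3* and *TST* kept their sign in all 3 comparisons. That rescaling also moved the median of all entries, by -0.13 and 0.11 in these 2 comparisons.

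*MT3*, *GSTM3* and *TST* were high and low in much the same pigs. Over the 16 pigs, Pearson's r was 0.773 for *MT3* and *TST* (Spearman's rho 0.815), 0.787 for *GSTM3* and *TST* (rho 0.803) and 0.685 for *MT3* and *GSTM3* (rho 0.812). The genes share the difference between Si-NEC and Co-NEC pigs for which the study listed them, so these values are descriptions, with no test. With the group means removed, r was 0.618, 0.663 and 0.488 in the same order, and without pigs 223-15 and 230-15 it was 0.662, 0.667 and 0.555. When the 2 pigs farthest from the median of the first gene were left out, r was 0.733, 0.732 and 0.606. With the group means removed and pigs 223-15 and 230-15 left out, over 14 pigs, r was 0.258, 0.437 and 0.170, so the relation within groups rests largely on those pigs. Si-NEC pigs 224-15 and 547-14 were the lowest of their group for *MT3* and *GSTM3*, and No NEC pig 228-15 had the lowest *GSTM3* and *TST* of its group.

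*GPX4* went with *MT3* only through the pigs that stood apart. Over the 16 pigs r was 0.633 (permutation p = 0.00815, or 0.0306 adjusted over the 15 pairs of genes) and rho was 0.438 (permutation p = 0.0909, adjusted 0.227). The 15 pairs include those among *MT3*, *GSTM3* and *TST*, which were selected on these data. Their small p-values lower the adjusted values of the other pairs, so no adjusted value in this paragraph is read as a finding. Without the 2 pigs farthest from the median *MT3*, r was 0.329, and without pigs 223-15 and 230-15 it was 0.108, so the relation rests on them. For *GPX4* and *NQO1*, r was 0.577 (permutation p = 0.0142, adjusted 0.0426) and rho 0.394 (permutation p = 0.134, adjusted 0.287), and r was 0.165 without pigs 223-15 and 230-15. *GSTM3* and *NQO1* had an r of 0.581 (permutation p = 0.0188, adjusted 0.0471) and a rho of 0.465 (permutation p = 0.0729, adjusted 0.219), and r was 0.389 without these pigs. *GCLC* had an r of 0.00 to 0.37 with each of the other genes, but rho was -0.18 to 0.15 and negative with all but *NQO1*. Without pigs 223-15 and 230-15 its r was -0.35 to 0.08, again negative with all but *NQO1*.

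**Figure D3:**
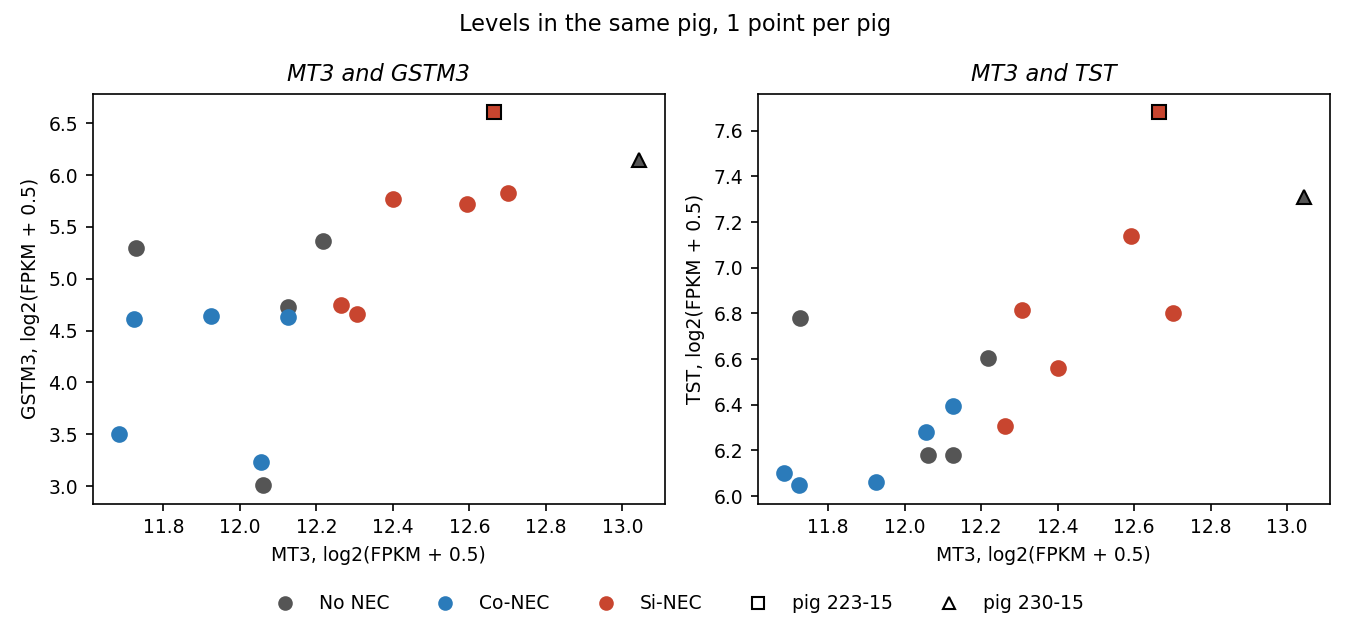
Levels of GSTM3 (left) and TST (right) against MT3 in the same pig, all on log2(FPKM + 0.5), with points coloured by group and pigs 223-15 and 230-15 as a square and a triangle. Pigs with more MT3 also had more of the other gene (r of 0.685 and 0.773 over 16 pigs), with most Co-NEC pigs at the lower left.

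Each pig was also described by its deviations. Averaged over *MT3*, *GSTM3* and *TST*, the deviation from the mean of all pigs (log2) was 0.02 to 1.082 in 5 of the 6 Si-NEC pigs and -0.13 in pig 547-14. It was -0.81 to -0.19 in the 5 Co-NEC pigs. In the No NEC pigs it went from -0.82 in pig 228-15 to 0.93 in pig 230-15. The average over *GPX4*, *GCLC* and *NQO1* was 0.62 in pig 230-15 and 0.28 in pig 223-15, and -0.27 to 0.16 in all others. The map of deviations gives the value of each gene and pig.

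**Figure D4:**
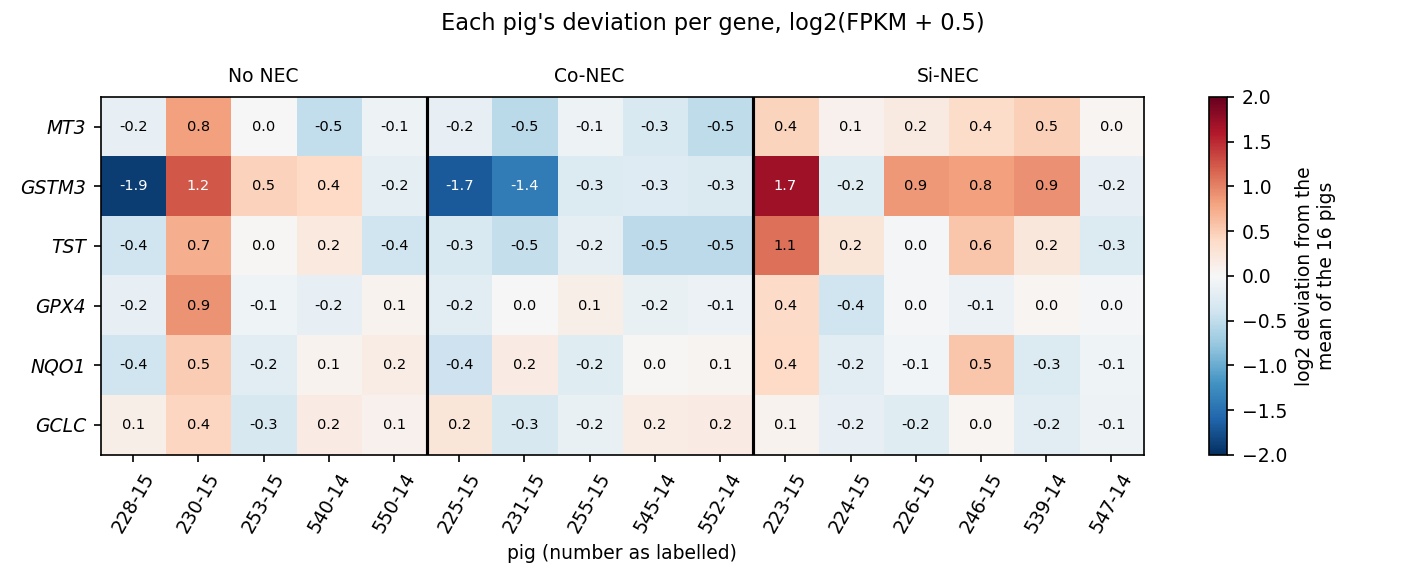
Deviation of each pig (columns, by group) from the mean of the 16 pigs for each gene (rows), on log2(FPKM + 0.5), with red for higher and blue for lower. GSTM3 has the largest deviations, all 5 Co-NEC pigs are below the mean for MT3, GSTM3 and TST, and pig 230-15 is above the mean for all 6 genes.

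Genes whose pattern over the 16 pigs was most like that of each listed gene were sought among all tested entries with a symbol, by Pearson's r and as a description. For *MT3* these were *HSD11B1L* (0.921), *RBM10*, an RNA-binding splicing regulator (0.915), and *NDUFB7*, a subunit of respiratory complex I (0.913). Those nearest to *TST* were *PDLIM4*, a PDZ and LIM domain protein (0.930), *ARRDC2* (0.904) and *RPLP1*, a ribosomal stalk protein (0.896). *GSTM3* had no neighbour as close, with *VIRMA*, a part of the RNA adenosine methyltransferase complex (0.817), *CCNQ* (0.803) and again *PDLIM4* (0.801). Without pigs 223-15 and 230-15 these r were 0.842 to 0.922 for *MT3*, 0.743 to 0.835 for *TST* and 0.701 to 0.726 for *GSTM3*.

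Wider lists of the same pathways, of 120 genes in all, had 69 found by symbol and 65 tested, the 6 genes included. Limma called 0 of the 65 in each comparison. At an unadjusted p under 0.05, again read beside 2.61%, 3.44% and 5.64% of all entries, there were 1 higher and 1 lower in Si-NEC against No NEC pigs, 0 in Co-NEC against No NEC pigs, and 5 higher and 1 lower in Si-NEC against Co-NEC pigs. Of those 5, 3 were *MT3*, *GSTM3* and *TST*, and without the 6 genes 2 of 59 were higher and 1 of 59 lower. Outside the 6 genes the counts were thus near the shares of all entries. The list genes named below were picked by these p-values and are given as descriptions. The median difference of the 65 was -0.03, -0.10 and 0.06 in this order. Co-NEC pigs were lower than No NEC pigs in 50 of the 65 genes, and Si-NEC pigs were higher than Co-NEC pigs in 44. Over all entries the first group was higher in 52.0% for Co-NEC against No NEC and in 50.1% for Si-NEC against Co-NEC pigs. These 2 counts rested on pigs 223-15 and 230-15, without which they were 32 and 32 of the 65, and with FPKM rescaled to equal sums they were 29 and 19. That rescaling also moved the median of all entries, by 0.11 in Co-NEC against No NEC and -0.13 in Si-NEC against Co-NEC pigs. The rescaled counts are thus not particular to these lists. The directions of the lists below hold for the values as deposited. The comparisons share the Co-NEC pigs, and the counts were not tested.

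Among the enzymes of glutathione synthesis and recycling, 9 of 12 genes were lower in both NEC groups than in No NEC pigs, with a median of -0.12 for Si-NEC and -0.11 for Co-NEC pigs. Glutathione peroxidases, peroxiredoxins and catalase, which remove peroxides, kept close to 0, with a range of -0.09 to 0.23 between Si-NEC and Co-NEC pigs over 8 genes, and all 8 were lower in Co-NEC than in No NEC pigs. Of the 6 glutathione transferases tested, *GSTM3* lay at 1.43 between Si-NEC and Co-NEC pigs, and the median of the list was 0.05. The 10 genes of thioredoxin and glutaredoxin, thiol systems beside glutathione, had medians of -0.04, -0.14 and 0.07 in Si-NEC against No NEC, Co-NEC against No NEC and Si-NEC against Co-NEC pigs. The 3 genes tested from the superoxide dismutase list, *SOD1*, *SOD3* and *CCS*, had medians of -0.02, -0.16 and 0.08 in the same order. *SOD3* was near the floor, with a mean of 0.74 FPKM. For the 14 genes of the NRF2 pathway and its targets the medians were 0.02, -0.09 and 0.12, and for the 6 selenoprotein synthesis and transport genes -0.09, -0.06 and -0.04.

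Metallothioneins and zinc handling genes had a list median of 0.32 between Si-NEC and Co-NEC pigs over 4 genes, and of 0.09 over 3 without *MT3*. *MT1X*, another metallothionein, was at 596, 617, 641, 682, 1002 and 1046 FPKM in the Si-NEC pigs. The Co-NEC pigs were at 438, 467, 488, 491 and 696 FPKM, and the No NEC pigs at 532, 551, 618, 640 and 1027 FPKM. Co-NEC pig 255-15 was above 4 of the Si-NEC pigs, and the other Co-NEC pigs were below all of them. The difference between Si-NEC and Co-NEC pigs was 0.55 (95% interval 0.15 to 0.95, unadjusted p = 0.0116 and adjusted p = 0.851 by limma). Reads shared between metallothionein genes make this level uncertain too.

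The sulfur and sulfide list, with *TST* among its 6 tested genes, had a median of 0.29 between Si-NEC and Co-NEC pigs, and of 0.18 over 5 genes without *TST*. *CTH*, which makes cysteine from cystathionine, had 2.68 to 4.71 FPKM in Si-NEC and 2.004 to 3.87 FPKM in Co-NEC animals. The difference was 0.41 (95% interval 0.04 to 0.77, unadjusted p = 0.0310 and adjusted p = 0.867 by limma). *SUOX*, the sulfite oxidase, was at 11.1 to 14.7 FPKM in Si-NEC and 10.1 to 12.3 FPKM in No NEC pigs, with 4 of 6 Si-NEC pigs above all No NEC pigs. Its difference was 0.23 (95% interval 0.00 to 0.47, unadjusted p = 0.0493, adjusted p = 1 by limma).

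Lower levels than in No NEC pigs were seen for *SRXN1*, sulfiredoxin, which repairs overoxidized peroxiredoxins and is a target of NRF2. It was at 15.9, 17.2, 18.8, 19.1, 19.3 and 20.4 FPKM in the Si-NEC pigs and at 20.3, 21.1, 23.1, 24.8 and 26.5 FPKM in the No NEC pigs, so that 5 of 6 Si-NEC pigs were below every No NEC pig. The difference was -0.32 (95% interval -0.55 to -0.09, unadjusted p = 0.0101, adjusted p = 1 by limma). The Co-NEC pigs, at 14.5 to 25.4 FPKM, also lay low, with 4 of 5 below every No NEC pig, a difference of -0.24 from No NEC (95% interval -0.55 to 0.08, unadjusted p = 0.122 by limma), and the Si-NEC pigs differed from them by -0.08 (95% interval -0.35 to 0.19). *SEPSECS*, which makes the selenocysteine-carrying tRNA used for GPX4 and other selenoproteins, was at 1.09 to 2.06 FPKM in Si-NEC and 1.83 to 2.45 FPKM in Co-NEC pigs. It differed by -0.40 (95% interval -0.70 to -0.10, unadjusted p = 0.0128, adjusted p = 0.851 by limma), with 5 of 6 Si-NEC pigs below all Co-NEC pigs. Without pigs 223-15 and 230-15 the named differences of *SRXN1*, *SUOX*, *MT1X*, *CTH* and *SEPSECS* were -0.28, 0.17, 0.45, 0.34 and -0.34. These genes were named for small p-values, at counts near the shares of all entries, so nothing is read from how far their groups separate.

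**Figure D5:**
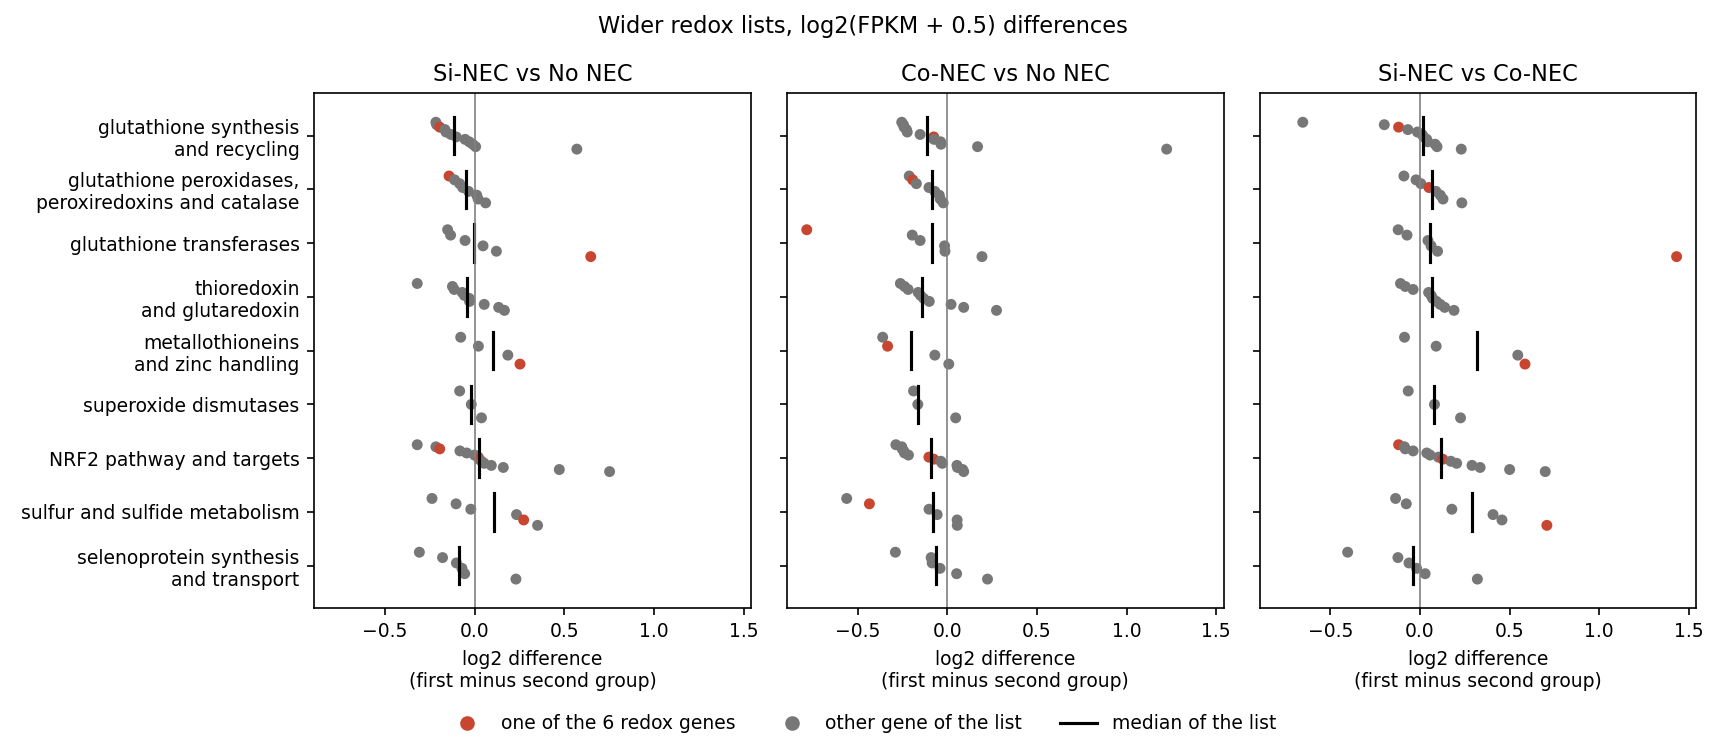
Log2(FPKM + 0.5) differences (horizontal axis, first minus second group) of each tested gene in 9 redox lists (rows), with the 6 redox genes in red, other genes in grey and the list median as a black bar. GSTM3, TST and MT3 are the highest red points in Si-NEC against Co-NEC pigs, at 1.43, 0.71 and 0.59, and all 9 list medians are below 0 in Co-NEC against No NEC pigs for the values as deposited, though not for the lists together without pigs 223-15 and 230-15.

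Markers of the cell types that the tissue could hold were summed per pig. Of the 13 astrocyte markers 8 were found, and their sum was 1143 to 1755 FPKM in the Si-NEC, 1258 to 1363 in the Co-NEC and 1169 to 1400 in the No NEC pigs, with *ALDH1L1* listed at 0 in all pigs. Neuron markers (6 of 9 found) summed to 1036 to 1345, 1158 to 1260 and 1217 to 1311 FPKM in the same order. Pig 223-15 had the highest astrocyte and the lowest neuron sum of the 16 pigs, whereas pig 230-15 ranked 15 for astrocytes and 3 for neurons. Both had the highest sums of microglia markers (6 of 11 found), 132 and 118 FPKM, and the ranges of the groups overlapped, at 50.0 to 132 in Si-NEC, 63.3 to 92.4 in Co-NEC and 56.5 to 118 in No NEC pigs.

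Oligodendrocyte markers (4 of 7 found) summed to 1368 to 2989 FPKM in Si-NEC, 1681 to 3132 in Co-NEC and 1498 to 2796 in No NEC pigs, and those of their precursors (3 of 4) to 61.0 to 92.7, 55.9 to 85.1 and 39.3 to 88.5 FPKM. Endothelial markers (3 of 7) summed to 16.6 to 31.0, 15.7 to 22.2 and 9.82 to 25.1 FPKM, mural and meningeal markers (5 of 7) to 31.2 to 57.8, 33.2 to 56.2 and 33.8 to 69.2 FPKM, and choroid plexus markers (2 of 5) to 5.52 to 25.5, 0.23 to 13.3 and 4.94 to 23.5 FPKM. These sums overlapped between all groups. Erythroid markers (4 of 7) went from 22.3 to 248 FPKM in Si-NEC, 72.3 to 329 in Co-NEC and 85.6 to 1298 in No NEC pigs. Neutrophil markers (3 of 5, with *CSF3R* listed at 0 in all pigs) went from 2.39 to 25.02 FPKM in Si-NEC, 0.91 to 2.44 in Co-NEC and 1.07 to 3.33 in No NEC pigs. In 5 of 6 Si-NEC pigs the sum of neutrophil markers was above that of every other pig, all but 547-14, and its part in the values of the redox genes was not tested. The sum is that of *S100A8* and *MPO*. *S100A8* is in the study's own list for Si-NEC against No NEC pigs, so it was selected on these pigs and nothing is read from the separation.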

How the data were processed

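The authors trimmed the reads, aligned them to the pig genome and estimated FPKM, and the submitters' processing notes name TopHat2 2.1.1, Cufflinks 2.2.1, Cuffdiff and the build Sscrofa10.2. The deposited FPKM values were used without rescaling, with 1 column per pig. They hold no read counts, so the depth per pig and the counting error are unknown.

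Of 24594 entries, 1779 identical to another were dropped. Those whose mean over the pigs reached 0.5 FPKM were compared pairwise on log2(FPKM + 0.5) with limma 3.58.1 in R 4.3.3 (eBayes with a trend, no covariate), which stands in for the study's Cuffdiff, with Benjamini-Hochberg adjustment over all entries and a threshold of 0.2. The log2 scale with this offset understates differences of genes at low FPKM. Single genes were also compared by two-sided exact permutation tests of the mean log2 difference. Correlations used 100000 permutations. The p-values set a difference or a correlation against the spread between these pigs. The fit was tested on simulated data, and Python 3.11.15 with numpy 2.4.6, pandas 2.3.3, scipy 1.17.1 and matplotlib 3.10.9 made the other values.

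The genes, the wider lists and the cell type markers were chosen with earlier results of these data known. Named were the 10 genes, list genes with an unadjusted p under 0.05 (up to 6 per comparison), markers at 0, and the 3 entries with a symbol most like *MT3*, *GSTM3* and *TST*. Symbols came from a table whose build is not named, and where a list gene had several entries the highest was used.

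Alternatives were pseudocounts of 0.1 and 1, no filter, a minimum mean of 1 FPKM, rescaling by the median of ratios, one fit of all groups, sex or number ending as a covariate, eBayes without a trend or robust, array weights, an adjusted p of 0.05, and leaving out each pig or pigs 223-15 and 230-15. Rescaling to equal FPKM sums, the list counts and list genes without the 2 pigs or rescaled, list medians without the 10 genes and group-centred correlations without the 2 pigs were added after the data were seen.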

Additional observations from a re-analysis of the deposited data

Results flagged for a closer look

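A pig far from the rest of its group was sought by Dixon's test in the 18 sets of 1 gene and 1 group, and 2 were found. The nominal rate is about 1 in 20 sets. The share of all entries flagged in this way is not given here, so the count is not read as an excess. Both flags were No NEC pig 230-15, which also had the lowest median correlation with the other pigs across genes (0.902). Its *MT3* level was 8441 FPKM, against 3390 to 4759 FPKM in the other No NEC pigs, and the gap was 0.729 of the range of the group, beyond the critical value of 0.71. Its *GPX4* level was 245 FPKM, against 117 to 138 FPKM in the others, with a gap of 0.835 of the range. The same pig had the highest FPKM sum of the 16 pigs and the lowest sum of endothelial and oligodendrocyte precursor markers, and the part of these in the levels of both genes was not tested.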

How the results depend on the processing

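The 18 differences (6 genes in 3 comparisons) were recomputed in 426 alternatives. None moved by as much as 1 SD between pigs of a group, a wide limit, at 0.31 for *MT3*, 0.88 for *GSTM3* and 0.40 for *TST* (log2). The differences of these genes between Si-NEC and No NEC pigs were smaller, at 0.25, 0.65 and 0.27. That of *GSTM3* fell to 0.17 without pig 228-15 and still counted as unmoved. Of the 18 differences, 11 kept their sign in all alternatives, those of *MT3*, *GSTM3* and *TST* in each comparison among them. The other 7, all of *GPX4*, *GCLC* or *NQO1*, took the other sign in 19 alternatives, at values from -0.09 to 0.06. Rescaling to equal FPKM sums moved the median of all entries by -0.13 (Si-NEC against Co-NEC) and 0.11 (Co-NEC against No NEC), and 4 of the 19 belong to it.

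The counts of entries called, 1, 1 and 2 in Si-NEC against No NEC, Co-NEC against No NEC and Si-NEC against Co-NEC pigs, depended on the setting. The first was 4 with array weights, 2 with the number ending as a covariate and 1 to 3 with single pigs left out (3 without 540-14). The second was 4 with no filter and 1 to 2 with single pigs left out (2 without 225-15 or 540-14). The third was 201 with array weights, 1 with one fit, no filter, a pseudocount of 0.1, sex or number ending as a covariate, equal sums, an adjusted p of 0.05 or without pigs 223-15 and 230-15, and 1 to 12 with single pigs left out (12 without 547-14, 5 without 255-15).

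Of the 6 genes, 0, 0 and 3 had an unadjusted p under 0.05 in these comparisons, beside 2.61%, 3.44% and 5.64% of all entries. The first count was 1 (*MT3*) with array weights, without pig 230-15 and without both pigs, and 1 (*GCLC*) without 253-15, a range of 0 to 1. The second was 1 (*TST*) after median-of-ratios rescaling, 1 (*TST*) without 550-14 and 2 (*GSTM3* and *TST*) without 228-15, a range of 0 to 2. The third was 3 in every alternative, always *MT3*, *GSTM3* and *TST*, which were selected on this contrast, so nothing is read from it. Over all entries, the number with an unadjusted p under 0.05 went from 236 to 741, from 246 to 1317 and from 489 to 2159 in the same order. The cause of these shifts was not tested. No paired analysis was possible because the labels give no pig number or litter that is shared between groups. Without read counts, no limit set by depth can be given.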

Other observations

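Differences between groups were also fitted separately by the labelled sex, as 18 interactions of sex with the comparison for the 6 genes. None passed adjustment over all entries (smallest adjusted p 0.439 by limma), and 2 had an unadjusted p under 0.05. By chance alone, a fraction of 0.05 of such tests would be under that limit. The share of all entries with an interaction p under 0.05 is not given here. The count of 2 of 18 therefore has no background and is not read as an excess. For *GCLC*, the subunit that limits glutathione synthesis, the 2 female Co-NEC pigs were at 8.93 and 10.05 FPKM and the 3 males at 12.6 to 13.4 FPKM, while in the Si-NEC pigs the 3 females were at 9.94 to 11.9 and the 3 males at 9.46 to 10.4 FPKM (interaction in Si-NEC against Co-NEC pigs, unadjusted p = 0.00523 and adjusted p = 0.484 by limma). For *NQO1*, the 2 female No NEC pigs were at 6.16 and 7.06 FPKM and the 3 males at 8.75 to 12.1 FPKM, while in the Si-NEC pigs the females were at 7.01 to 12.4 and the males at 6.74 to 7.99 FPKM (interaction in Si-NEC against No NEC pigs, unadjusted p = 0.0164 and adjusted p = 0.439 by limma). With only 2 or 3 pigs per sex and group, nothing is read from either pattern.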
